A study of Danio rerio with 4 samples.

Results

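The genes described here encode the extracellular and membrane parts of Wnt signalling in whole zebrafish embryos, with the Axins and the Tcf and Lef transcription factors that act further down the pathway. Members were every row of the deposited expression file whose gene symbol named a Wnt ligand (wnt), a Frizzled receptor (fzd), Lrp5 or Lrp6, an R-spondin (rspo), a Dickkopf or secreted Frizzled-related inhibitor (dkk, sfrp, frzb), Axin1 or Axin2, Lef1 or a Tcf7 factor. There were 63 such genes among 32057 Ensembl gene identifiers: 26 ligands, 13 receptors, 2 co-receptors, 4 R-spondins, 11 inhibitors, 2 Axins and 5 Tcf or Lef factors. Of these, 56 reached 1 TPM in at least 2 libraries and were tested. TPM, the unit of the deposited values, is corrected for transcript length, so that levels of different genes can be set side by side.

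The study made 4 poly-A RNA libraries. A pair came from quadruple mutants, mdm2-/-; puma-/-; noxa-/-; p21-/-, whose titles call them abnormal. The other pair came from siblings labelled normal, which were puma-/-; noxa-/-; p21-/- as well and carried at least 1 intact mdm2 copy, mdm2+/- or mdm2+/+ without distinction. Mdm2 is the ubiquitin ligase that holds p53 down, puma and noxa promote apoptosis and p21 inhibits cyclin-dependent kinases. The comparison therefore shows what differs with loss of mdm2 in embryos that all lack these 3 p53 targets, and genotype and the abnormal appearance cannot be told apart. Titles give 18 hours post-fertilization, whereas the tissue label reads 30. In a whole embryo, fewer cells of a type and less RNA per cell cannot be told apart either.

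Wnt ligands are secreted lipid-modified proteins that bind Frizzled receptors. With Lrp5 or Lrp6 they stop the Axin-containing destruction complex from degrading beta-catenin, which then joins Tcf and Lef factors on target genes. Other ligands act through Frizzleds without beta-catenin and steer cell movement and planar polarity. Dkk1 blocks Lrp5 and Lrp6, secreted Frizzled-related proteins bind the ligands, and R-spondins raise the signal by keeping receptors at the surface. In the zebrafish embryo these signals pattern the ventral and posterior body, the midbrain-hindbrain boundary, the dorsal neural tube and the tailbud.

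The mdm2 transcript stood at 1634 and 1819 TPM in mutant embryos against 81.9 and 85.1 TPM in control embryos. Reads from mutated and intact alleles both enter this value, so it is no check of the genotype. Each library held 15242 to 15584 genes at 1 TPM or more, and sequencing depth is unknown because TPM keeps none. The labels do not say whether libraries of a genotype are separate clutches. All p-values therefore speak of the spread among these 4 libraries, which may be technical.

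Of the 56 tested Wnt genes, 19 were higher and 25 lower in the mutants at a limma adjusted p under 0.05, and 12 did not pass. Among all 16172 tested genes 28.0% were higher and 37.7% lower, 65.6% in all, so a call by itself was common. With median ratio scaling 5316 genes were higher and 5270 lower, against 4522 higher and 6091 lower without it. That scaling centres the changes of all genes (median 0.0043), so near-equal counts largely follow from it. They say nothing about the excess of lower calls seen without it. Called genes with a log2(TPM + 1) change of 1 or more numbered 11 higher and 7 lower, or 18 in all. They were 19.6%, 12.5% and 32.1% of the tested Wnt genes, where 9.54%, 11.5% and 21.0% of all tested genes passed the same limits. The median log2 change was -0.15 over the tested Wnt genes and -0.10 over all tested genes. The genotypes did not overlap in 53 of the 56 tested Wnt genes, among them all 44 that were called, and in 83.3% of all tested genes. Of the tested genes 3 reached 1 TPM only in the mutants (rspo1, wnt2 and fzd9 ENSDARG00000035185) and 2 only in the controls (sfrp1 ENSDARG00000057678 and dkk2), so these had to differ to be tested at all. Those 3 are among the 11 higher by 1 or more, so 19.6% and 32.1% include rises that the filter required. The falls of the other 2 count among the 25 lower in the same way. The shares over all tested genes were not cleared of such genes either. The 7 untested genes, wnt2ba, wnt6a, wnt4b, rspo4, frzb and both copies of dkk3, stayed at or below 0.43 TPM in every library.

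**Figure D1:**
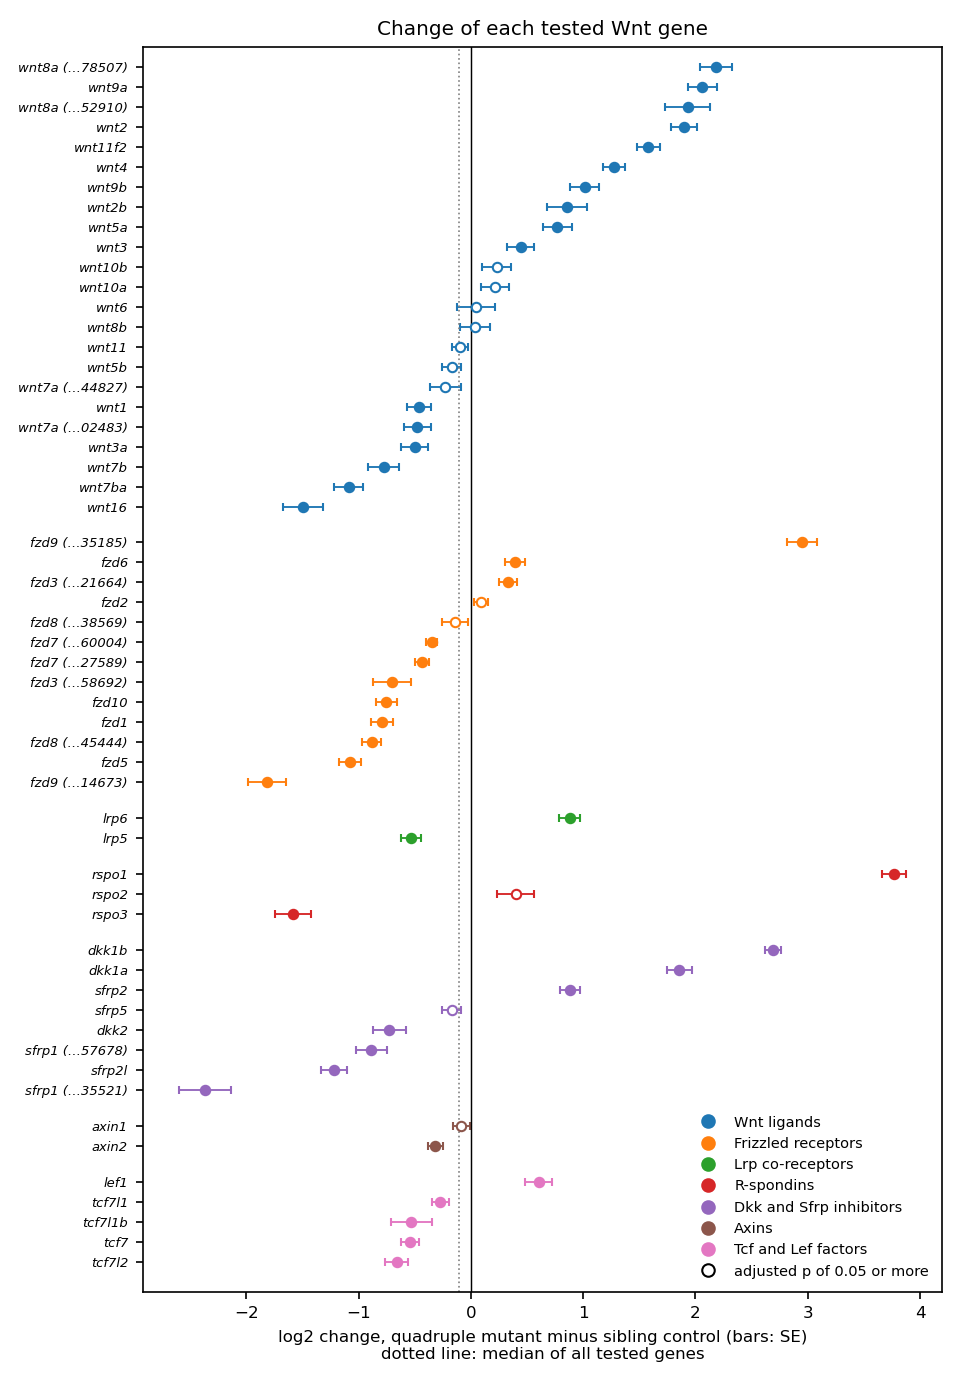
Log2 change (quadruple mutant minus sibling control, log2(TPM + 1) scale) of each of the 56 tested Wnt genes, ordered within its role, with bars for the standard error and open points for genes that did not pass. Changes run from -2.37 for sfrp1 (ENSDARG00000035521) to 3.77 for rspo1, and the dotted line marks the median of all tested genes at -0.10.

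Of the 23 ligand genes tested, 10 were higher (43.5%) and 6 lower (26.1%) in the mutants, and 7 did not pass. Over all tested genes 28.0% were higher and 37.7% lower. Among the higher ligands wnt2 was tested only through its mutant level. The median change of the ligands was 0.21. The rises were led by wnt8a, wnt9a, wnt2, wnt11f2 and wnt4, and the falls by wnt16 and the wnt7 genes. Summed over all 26 genes, ligand transcript amounted to 222 and 205 TPM in mutant embryos against 161 and 160.5 TPM in control embryos.

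wnt8a is the ligand of the gastrula margin and tailbud that promotes ventral and posterior fates. Its symbol belongs to 2 identifiers. ENSDARG00000078507 had 11.97 and 9.35 TPM in mutant embryos against 1.62 and 1.49 TPM in control embryos (log2 change 2.18, SE 0.14, limma adjusted p = 7.96e-05). ENSDARG00000052910 had 9.85 and 8.41 TPM in mutant embryos against 2.20 and 1.20 TPM in control embryos (1.93, SE 0.20, limma adjusted p = 0.000403). Both mutant libraries were well above both controls for each identifier, and the copies together made 21.8 and 17.8 TPM in mutant embryos against 3.82 and 2.69 TPM in control embryos. The RefSeq gene order of assembly GRCz12tu lists wnt8a beside a second gene, wnt8-2, and how reads were divided between such neighbours is not stated in the labels.

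wnt9a, whose product acts in zebrafish blood stem cell development, had 17.3 and 13.8 TPM in mutant embryos against 2.90 and 2.99 TPM in control embryos (log2 change 2.06, SE 0.13, limma adjusted p = 7.25e-05). Its paralogue wnt9b had 5.8 and 5.39 TPM in mutant embryos against 2.02 and 2.53 TPM in control embryos (1.01, SE 0.13). wnt2, a mesodermal ligand needed for lung specification in mice, had 5.20 and 5.46 TPM in mutant embryos and 0.70 TPM in both control libraries (1.90, SE 0.12). It was tested only through its mutant level. Relative to the mean control level, the mutant mean was 5.29-fold for wnt9a, 2.46-fold for wnt9b and 7.61-fold for wnt2. wnt2b was higher by less, with 6.00 and 6.66 TPM in mutant embryos against 2.43 and 3.76 TPM in control embryos (0.86, SE 0.18).

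Ligands known for signalling without beta-catenin did not move as a block. wnt11f2, the silberblick gene required for cell movement in gastrulation, had 21.6 and 18.6 TPM in mutant embryos against 5.89 and 6.18 TPM in control embryos (log2 change 1.58, SE 0.11, limma adjusted p = 8.31e-05). wnt4 had 33.0 and 28.8 TPM in mutant embryos against 11.7 and 12.7 TPM in control embryos (1.27, SE 0.10, limma adjusted p = 0.000132). wnt5a rose by a smaller amount from a low base, to 2.42 ± 0.19 TPM in mutant embryos against 1.01 ± 0.11 TPM in control embryos (SD, n = 2 per genotype; 0.77, SE 0.13). By contrast wnt11, the other wnt11 gene, had 32.5 and 34.3 TPM in mutant embryos and 35.5 and 36.1 TPM in control embryos (-0.10, SE 0.07, limma adjusted p = 0.252). wnt5b, the pipetail gene of tail extension, had 27.5 and 24.4 TPM in mutant embryos and 29.3 TPM in both control libraries (-0.17, SE 0.08, limma adjusted p = 0.118). The sign of wnt11 turned with median ratio scaling, and wnt5b passed without mutant replicate 1 (adjusted p = 0.0256).

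The largest fall among ligands was that of wnt16, a somite ligand needed for blood stem cell specification in zebrafish. It had 3.95 and 6.13 TPM in mutant embryos against 15.7 and 15.8 TPM in control embryos (log2 change -1.50, SE 0.18, limma adjusted p = 0.000699). Of the wnt7 genes, whose products come from the neural tube and direct vessel growth into the brain, 3 fell and 1 did not pass. wnt7ba had 1.08 TPM in both mutant libraries against 3.69 and 3.17 TPM in control embryos (-1.09, SE 0.13), and wnt7b had 1.58 and 1.19 TPM in mutant embryos against 3.16 and 2.98 TPM in control embryos (-0.78, SE 0.14). Of the wnt7a copies, ENSDARG00000002483 fell by 0.48 (SE 0.12), whereas ENSDARG00000044827 had 1.76 and 1.89 TPM in mutant embryos and 2.59 and 2.04 TPM in control embryos (limma adjusted p = 0.197). The fall of ENSDARG00000002483 did not pass without control replicate 1 (-0.45) or without control replicate 2 (-0.50). In those fits fewer of all tested genes passed too, so such a loss was not particular to this gene.

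Ligands of the dorsal neural tube and midbrain-hindbrain boundary changed less. wnt1 had 6.33 and 6.15 TPM in mutant embryos against 9.61 and 8.40 TPM in control embryos (log2 change -0.46, SE 0.11, limma adjusted p = 0.0105). wnt3a had 3.03 and 2.7 TPM in mutant embryos against 4.68 and 4.25 TPM in control embryos (-0.50, SE 0.12, limma adjusted p = 0.012). Neither call passed without control replicate 1, where the adjusted p was 0.0862 for wnt1 and 0.0906 for wnt3a. wnt3 went the other way, with 5.73 and 4.92 TPM in mutant embryos against 3.75 and 3.54 TPM in control embryos (0.44, SE 0.12). That call was lost without mutant replicate 1, control replicate 1 or control replicate 2, with adjusted p-values of 0.068, 0.0703 and 0.103. wnt10b (0.23), wnt10a (0.21), wnt8b (0.04) and wnt6 (0.05) did not pass, although wnt10b passed without mutant replicate 2 (adjusted p = 0.026). The sign of wnt8b turned without mutant replicate 2 or control replicate 1, and that of wnt6 without mutant replicate 1 or control replicate 1.

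Genes that lie next to each other did not always move together. In the RefSeq gene order of assembly GRCz12tu, wnt3a and wnt9a are adjacent protein-coding genes, and so are wnt10b and wnt1. Log2 changes were -0.50 for wnt3a and 2.06 for wnt9a, and 0.23 for wnt10b, which did not pass, and -0.46 for wnt1. The same order sets wnt6b beside wnt10a and wnt8a beside wnt8-2, but wnt6b and wnt8-2 are not among the symbols used here. Whether a wnt8a identifier stands for wnt8-2 is not known, because copies can share a symbol. The gene named wnt6 changed by 0.05 and wnt10a by 0.21, and neither passed. Both wnt8a identifiers rose, by 2.18 and 1.93.

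The order of ligand levels also differed between genotypes. In the mutants the highest means were those of wnt11 (33.4 TPM), wnt4 (30.9 TPM), wnt5b (25.9 TPM), wnt11f2 (20.1 TPM) and wnt9a (15.6 TPM). In the controls they were those of wnt11 (35.8 TPM), wnt5b (29.3 TPM), wnt16 (15.8 TPM), wnt4 (12.2 TPM) and wnt10b (9.58 TPM). The libraries of wnt11 and wnt4 overlapped in the mutants and those of wnt4 and wnt5b did not. By rank of mean TPM among the 26 ligands, wnt16 was number 14 in the mutants and number 3 in the controls, and wnt9a was number 5 in the mutants and number 15 in the controls.

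**Figure D2:**
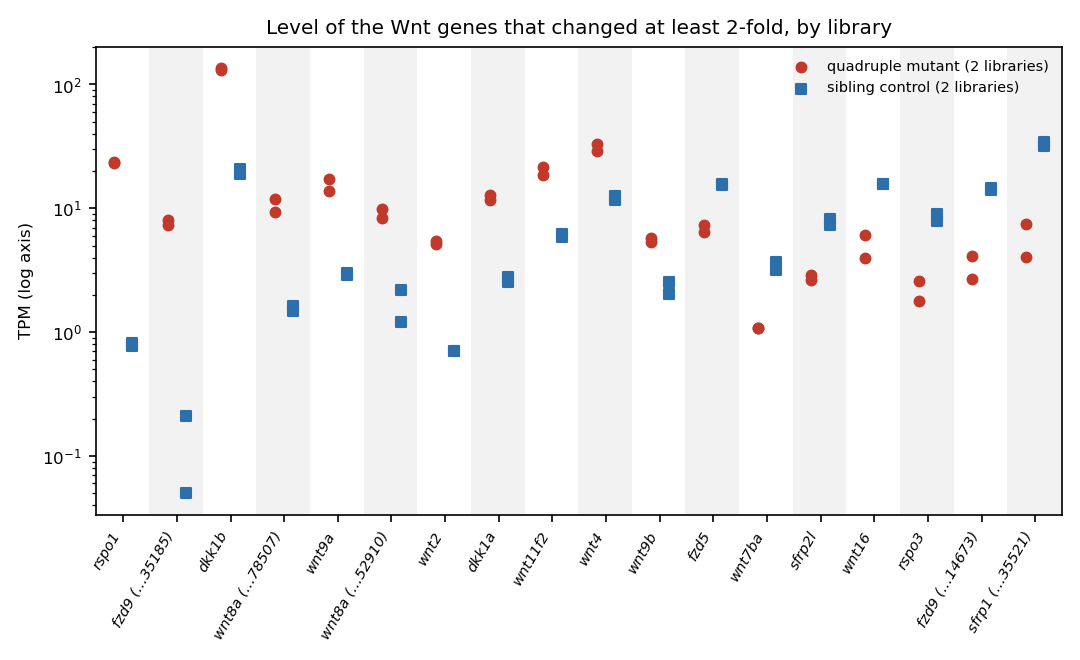
TPM in each of the 4 libraries, on a log axis, for the 18 Wnt genes called with a log2(TPM + 1) change of at least 1, mutants as circles to the left of controls as squares. The genotypes do not overlap for any of them, and rspo1 shows a wide gap, at 23.1 and 23.8 TPM in mutant embryos against 0.77 and 0.82 TPM in control embryos. Of these genes rspo1, wnt2 and fzd9 ENSDARG00000035185 were tested only through their mutant level.

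Of the 13 Frizzled genes, 8 were lower (61.5%) and 3 higher (23.1%) in the mutants, and 2 did not pass, where 37.7% of all tested genes were lower and 28.0% higher. Among the higher Frizzleds fzd9 ENSDARG00000035185 was tested only through its mutant level. The median change of the Frizzleds was -0.44. Summed Frizzled transcript came to 348 and 355 TPM in mutant embryos against 441.5 and 443 TPM in control embryos. The most abundant receptor gene in both genotypes was fzd7 ENSDARG00000060004, a receptor used in gastrulation movements, with 131 and 134 TPM in mutant embryos against 168 and 170.3 TPM in control embryos (log2 change -0.35, SE 0.05, limma adjusted p = 0.00155). The other fzd7 copy, ENSDARG00000027589, had 38.3 and 40.1 TPM in mutant embryos against 53.4 and 53.2 TPM in control embryos (-0.44, SE 0.06).

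The copies of fzd9 moved in opposite directions. ENSDARG00000014673 had 2.7 and 4.09 TPM in mutant embryos against 14.5 and 14.0 TPM in control embryos (log2 change -1.82, SE 0.17, limma adjusted p = 0.000247). ENSDARG00000035185 had 8.0 and 7.4 TPM in mutant embryos, while the controls were listed at 0.21 and 0.05 TPM (2.95, SE 0.14, limma adjusted p = 2.4e-05). This copy was tested only through its mutant level. The copy with the higher level was ENSDARG00000035185 in the mutants and ENSDARG00000014673 in the controls, and the sum over both copies was 10.7 and 11.5 TPM in mutant embryos against 14.8 and 14.1 TPM in control embryos. fzd3, which acts in axon guidance and planar polarity, also had copies that parted. ENSDARG00000021664 had 17.4 and 17.1 TPM in mutant embryos against 13.7 and 13.3 TPM in control embryos (0.33, SE 0.08), and ENSDARG00000058692 had 3.29 and 2.16 TPM in mutant embryos against 4.77 and 5.23 TPM in control embryos (-0.70, SE 0.17). The rise of the first fzd3 copy did not pass without control replicate 1 (adjusted p = 0.0663) or without control replicate 2 (adjusted p = 0.0948), and the fall of the second did not pass without control replicate 2 (adjusted p = 0.0681).

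Among Frizzleds known from the forebrain and eye, fzd5 and 1 of the fzd8 copies fell. fzd5, a receptor of the eye field, had 6.45 and 7.38 TPM in mutant embryos against 15.5 and 15.8 TPM in control embryos (log2 change -1.07, SE 0.10, limma adjusted p = 0.000272). fzd8 ENSDARG00000045444, of a forebrain receptor gene pair, had 14.9 and 16.4 TPM in mutant embryos against 28.6 and 30.8 TPM in control embryos (-0.88, SE 0.09). Its partner ENSDARG00000038569 had 6.22 and 7.26 TPM in mutant embryos and 7.21 and 7.80 TPM in control embryos, which overlapped (-0.14, limma adjusted p = 0.329). fzd10, a dorsal neural tube receptor, had 26.5 and 30.9 TPM in mutant embryos against 49.6 and 48.1 TPM in control embryos (-0.75, SE 0.09), and fzd1 fell by 0.79 (SE 0.10). fzd6, a planar polarity receptor, had 36.3 and 31.4 TPM in mutant embryos against 26.0 and 25.1 TPM in control embryos (0.39, SE 0.09), and did not pass without control replicate 2 (adjusted p = 0.0686). fzd2 had 50.01 and 50.9 TPM in mutant embryos and 48.1 and 46.4 TPM in control embryos. Its change of 0.09 did not pass (limma adjusted p = 0.231), but did at 0.21 after median ratio scaling (adjusted p = 0.0198).

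The co-receptor genes went opposite ways. lrp6 had 85.5 and 71.7 TPM in mutant embryos against 42.3 and 41.9 TPM in control embryos (log2 change 0.88, SE 0.09, limma adjusted p = 0.000444). lrp5 had 9.42 and 9.35 TPM in mutant embryos against 14.5 and 13.6 TPM in control embryos (-0.53, SE 0.09, limma adjusted p = 0.00268). lrp6 thus made 90.1% and 88.5% of the summed co-receptor transcript in the mutants against 74.5% and 75.5% in the controls.

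R-spondin genes held the largest rise of any Wnt gene. rspo1 had 23.1 and 23.8 TPM in mutant embryos against 0.77 and 0.82 TPM in control embryos, a 29.5-fold ratio of means (log2 change 3.77, SE 0.10, limma adjusted p = 4.69e-06). Among all 16172 tested genes it ranked 92 from the largest rise. It reached 1 TPM only in the mutants, so it had to be higher to be tested. rspo3, needed for vessel development in mice, had 2.61 and 1.78 TPM in mutant embryos against 7.96 and 9.04 TPM in control embryos (-1.58, SE 0.16, limma adjusted p = 0.000368). rspo2 had 4.18 and 3.64 TPM in mutant embryos and 3.26 and 2.25 TPM in control embryos, a change of 0.40 that did not pass (SE 0.17, limma adjusted p = 0.078). It passed after median ratio scaling (adjusted p = 0.0416) and without control replicate 1 (adjusted p = 0.0417). Together the R-spondins made 29.9 and 29.3 TPM in mutant embryos against 11.99 and 12.1 TPM in control embryos, and the source of most of it was rspo1 in the mutants and rspo3 in the controls.

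Inhibitor genes went both ways. Of the 8 tested, 3 were higher and 4 lower in the mutants, and sfrp5 did not pass. Over all tested genes 28.0% were higher and 37.7% lower. Among the lower inhibitors dkk2 and sfrp1 ENSDARG00000057678 were tested only through their control level, so they had to be lower. The remaining lower inhibitors were sfrp1 ENSDARG00000035521 and sfrp2l. dkk1b, an inhibitor of Lrp co-receptors that promotes head formation and is itself induced by Wnt signalling, had 135 and 132 TPM in mutant embryos against 20.8 and 19.0 TPM in control embryos (log2 change 2.69, SE 0.07, limma adjusted p = 4.3e-06). dkk1a, its paralogue, had 12.9 and 11.7 TPM in mutant embryos against 2.77 and 2.56 TPM in control embryos (1.86, SE 0.11, limma adjusted p = 5.64e-05). Ratios of means were 6.72-fold for dkk1b and 4.6-fold for dkk1a. dkk2 was low throughout, at 0.39 and 0.26 TPM in mutant embryos against 1.04 and 1.35 TPM in control embryos (-0.73, SE 0.15).

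Among secreted Frizzled-related genes 3 fell, sfrp2 rose and sfrp5 did not pass. sfrp1 ENSDARG00000035521, whose product is known from the forebrain and eye, had 4.08 and 7.50 TPM in mutant embryos against 31.8 and 34.0 TPM in control embryos (log2 change -2.37, SE 0.23, limma adjusted p = 0.000327). The mutant libraries differed more from each other than the controls did, and the change was -2.74 without mutant replicate 2 and -2.0 without mutant replicate 1. The other sfrp1 copy, ENSDARG00000057678, had 0.48 and 0.61 TPM in mutant embryos against 2.04 and 1.68 TPM in control embryos (-0.89, SE 0.14). This copy was tested only through its control level, so it had to be lower and its fall supports no count. sfrp2 and sfrp2l parted, as sfrp2 had 20.5 and 19.0 TPM in mutant embryos against 10.6 and 9.88 TPM in control embryos (0.88, SE 0.09), and sfrp2l had 2.91 and 2.65 TPM in mutant embryos against 7.38 and 8.21 TPM in control embryos (-1.22, SE 0.12). sfrp5 had 17.9 and 19.8 TPM in mutant embryos and 20.9 and 21.8 TPM in control embryos (-0.17, SE 0.08, limma adjusted p = 0.125), and it passed without mutant replicate 2 (adjusted p = 0.0492).

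The make-up of the inhibitor transcripts also differed between genotypes. Summed over 11 genes they came to 195 and 194 TPM in mutant embryos against 98.0 and 99.6 TPM in control embryos. dkk1b made 69.4% and 68.0% of that sum in the mutants against 21.2% and 19.1% in the controls. sfrp1 ENSDARG00000035521 made 2.09% and 3.87% in the mutants against 32.5% and 34.2% in the controls, where it was the most abundant inhibitor gene. These sums and shares are given as a description, with no test.

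**Figure D3:**
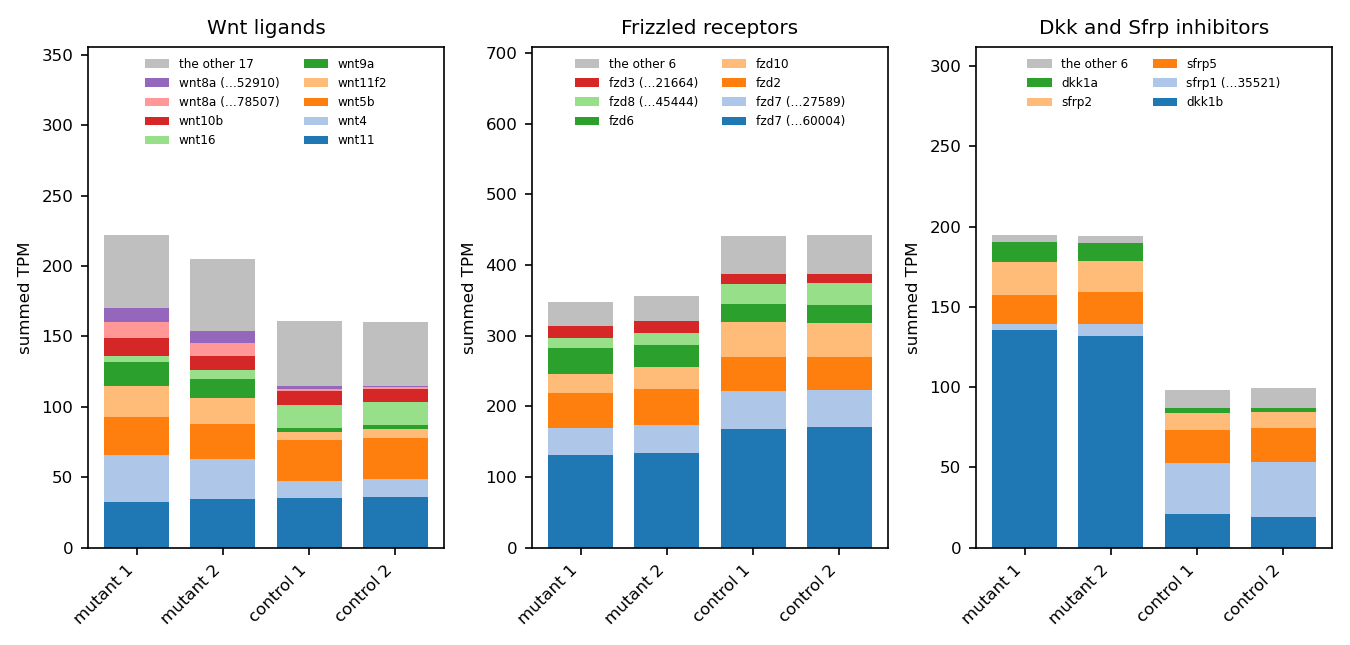
Summed TPM of the ligand, Frizzled and inhibitor genes in each library, mutants to the left of controls, with the most abundant genes of each role coloured and the others in grey. Ligands sum to 222 and 205 TPM in mutant embryos against 161 and 160.5 TPM in control embryos, Frizzleds to 348 and 355 TPM in mutant embryos against 441.5 and 443 TPM in control embryos, and inhibitors to 195 and 194 TPM in mutant embryos against 98.0 and 99.6 TPM in control embryos, most of the last in the mutants being dkk1b.

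Inside the cell, changes were smaller than 1 on the log2 scale for each Axin, Tcf and Lef gene. axin2, a feedback inhibitor that Wnt signalling induces in many tissues, had 26.2 and 26.4 TPM in mutant embryos against 33.4 and 32.5 TPM in control embryos (log2 change -0.32, SE 0.07, limma adjusted p = 0.00771). The call did not pass without control replicate 1 or without control replicate 2, where the changes were -0.30 and -0.34. There the SE was 0.11, against 0.07 with all libraries. axin1, the constitutive scaffold of the destruction complex, had 29.7 and 27.4 TPM in mutant embryos and 29.9 and 30.9 TPM in control embryos (-0.09, limma adjusted p = 0.346), and its sign turned with median ratio scaling (0.03).

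lef1, a transcriptional activator at Wnt targets and often a target itself, had 21.1 and 22.8 TPM in mutant embryos against 15.7 and 12.6 TPM in control embryos (log2 change 0.60, SE 0.12, limma adjusted p = 0.00535). The other 4 factors were lower, or 80.0% of the 5 tested, where 37.7% of all tested genes were lower and 28.0% higher. tcf7l2 had 8.11 and 9.38 TPM in mutant embryos against 14.1 and 14.6 TPM in control embryos (-0.66, SE 0.10), and tcf7 had 17.7 and 18.9 TPM in mutant embryos against 26.1 and 28.0 TPM in control embryos (-0.54, SE 0.08). The tcf7l1 genes encode repressors that the head needs. tcf7l1 (ENSDARG00000038159) had 27.7 and 28.1 TPM in mutant embryos against 32.5 and 35.5 TPM in control embryos (-0.27, limma adjusted p = 0.0206), and tcf7l1b had 9.10 and 13.1 TPM in mutant embryos against 14.7 and 17.9 TPM in control embryos (-0.53, limma adjusted p = 0.0423). Neither tcf7l1 call passed after median ratio scaling, with adjusted p-values of 0.119 for tcf7l1 and 0.0797 for tcf7l1b. Without mutant replicate 1 the change of tcf7l1b was -0.29 (adjusted p = 0.125), and its call was also lost without control replicate 1 (0.051) or control replicate 2 (0.191) by adjusted p. The same libraries ended the call of tcf7l1, with an adjusted p of 0.0537 without control replicate 1 and 0.175 without control replicate 2.

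Other genes of the pathway were taken from a list of 116 symbols, of which 105 genes outside the members were matched and 92 tested. Of these, 20 were higher and 46 lower in the mutants and 26 did not pass, or 71.7% called against 65.6% of all tested genes. Their median change was -0.26. Of the 92 genes, 7 reached 1 TPM only in the controls (sost, sostdc1, amer2, nkd2, vangl1, celsr3 and mitf), so these had to be lower to be tested at all, and their falls support no count. The remaining 85 held 20 higher and 39 lower. Fewer were called higher without control replicate 1 or control replicate 2, and the same held over all tested genes.

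Genes that make and release the ligands went both ways. wls, the carrier that takes Wnt proteins to the cell surface, had 161 and 162 TPM in mutant embryos against 99.8 and 97.6 TPM in control embryos (log2 change 0.71, SE 0.05, limma adjusted p = 0.000114). porcn (ENSDARG00000052455), the enzyme that adds the lipid, had 6.68 and 9.29 TPM in mutant embryos against 16.6 and 16.0 TPM in control embryos (-0.96, SE 0.15). gpc4, a glypican of gastrulation movements, rose by 1.02 (SE 0.07), and trabd2a, a protease that inactivates Wnt proteins, by 1.17 (SE 0.09). In this group of 9 tested genes 3 rose and 3 fell (33.3% each), where 28.0% and 37.7% of all tested genes did. Without sost and sostdc1, tested only through their control level, 3 of 7 rose and 1 fell.

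Among 8 other receptor and receptor turnover genes, 5 were lower (62.5%) and 2 higher (25.0%), where 37.7% and 28.0% of all tested genes were. The R-spondin receptor gene lgr6 had 0.54 and 1.27 TPM in mutant embryos against 5.42 and 4.94 TPM in control embryos (log2 change -1.72, SE 0.20, limma adjusted p = 0.000667). znrf3, the ligase that removes Frizzleds and that R-spondins restrain, fell by 0.72 (SE 0.10). The alternative Wnt receptor genes ror2 (-0.74, SE 0.09) and ptk7 (-0.62, SE 0.08) fell as well. lgr4, named after its values were seen, fell by 0.57 (SE 0.11).

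Of 23 cytoplasmic genes 6 were higher (26.1%), 8 lower (34.8%) and 9 did not pass, where 28.0% of all tested genes were higher and 37.7% lower. Without amer2 and nkd2, tested only through their control level, 6 of 21 were higher and 6 lower. The beta-catenin genes parted, as ctnnb1 had 409 and 399 TPM in mutant embryos against 591 TPM in both control libraries (log2 change -0.55, SE 0.04, limma adjusted p = 0.000167), and ctnnb2, named after its values were seen, had 216 and 193 TPM in mutant embryos against 166 and 173 TPM in control embryos (0.27, limma adjusted p = 0.0147). The ctnnb2 call did not pass without control replicate 1 (adjusted p = 0.106) or control replicate 2 (adjusted p = 0.0607). The naked genes, Wnt-induced inhibitors of Dishevelled, fell by 0.78 for nkd1 (SE 0.09) and by 1.40 for nkd2 (SE 0.15), which was tested only through its control level. The destruction complex kinase gene csnk1a1 rose by 0.53 (SE 0.05).

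Of 14 nuclear partners 9 were lower (64.3%) and 3 higher (21.4%), where 37.7% and 28.0% of all tested genes were. The corepressor gene ctbp1 (ENSDARG00000057007) had 72.4 and 70.4 TPM in mutant embryos against 214 and 215 TPM in control embryos (log2 change -1.57, SE 0.05, limma adjusted p = 8.67e-06). The Groucho corepressor genes tle2a (-0.99, SE 0.06) and tle3 (ENSDARG00000002787; -1.09, SE 0.07) and the corepressor gene ctbp2a (-0.58, SE 0.06) fell too. The other tle3 copy, ENSDARG00000069006, named after its values were seen, had 47.9 and 49.5 TPM in mutant embryos against 42.3 and 42.5 TPM in control embryos (0.20, SE 0.06, limma adjusted p = 0.0339). Its rise did not pass without mutant replicate 2 (adjusted p = 0.0536), control replicate 1 (0.182) or control replicate 2 (0.175). Of 15 planar polarity genes 8 were lower (53.3%) and 3 higher, where 37.7% and 28.0% of all tested genes were. Without vangl1 and celsr3, tested only through their control level, 6 of 13 were lower and 3 higher. The falls were led by the cadherin genes celsr2 (-1.76, SE 0.09), celsr1b (-1.29, SE 0.12) and celsr3 (-1.22, SE 0.13). prickle2 ENSDARG00000037593 followed (-0.94, SE 0.09). The cadherin gene celsr1 (ENSDARG00000069185), named after its values were seen, did not pass (0.12, limma adjusted p = 0.306). daam1 ENSDARG00000009689, also named after its values were seen, rose by 0.87 (SE 0.10).

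Textbook target genes of Wnt signalling did not share a direction. The list gave no direction expected of each gene, and matching by symbol added copies beyond those listed. Of 23 tested, 13 were lower (56.5%), 3 higher (13.0%) and 7 did not pass, where 37.7% of all tested genes were lower and 28.0% higher. Without mitf, tested only through its control level, 12 of 22 were lower and 3 higher. The 3 that rose were the ventral homeobox genes. They are known as wnt8a targets in the gastrula, and a link to wnt8a in these embryos was not tested. ved had 81.6 and 83.5 TPM in mutant embryos against 21.5 and 22.5 TPM in control embryos (log2 change 1.86, SE 0.07, limma adjusted p = 1.02e-05). vox had 79.4 and 84.1 TPM in mutant embryos against 36.0 and 33.0 TPM in control embryos (1.22, SE 0.07), and vent, named after its values were seen, rose by 0.52 (limma adjusted p = 0.00707). On the other side sp5, a feedback repressor of Wnt targets, had 1.71 and 1.84 TPM in mutant embryos against 8.16 and 7.85 TPM in control embryos (-1.70, SE 0.11). The more abundant sp5l, named after its values were seen, had 21.2 and 24.0 TPM in mutant embryos and 20.4 and 17.6 TPM in control embryos. Its change of 0.24 did not pass (limma adjusted p = 0.0897). myc (ENSDARG00000045695) fell by 1.29 (SE 0.09). The more abundant myc copy, ENSDARG00000007241, named after its values were seen, had 54.1 and 44.8 TPM in mutant embryos and 54.0 TPM in both control libraries (-0.13, SE 0.10, limma adjusted p = 0.282). It passed at -0.26 without mutant replicate 1 (adjusted p = 0.0132), and its sign turned without mutant replicate 2 (0.0029). Targets in the tailbud that are named after their values were seen included tbx6 (-0.87), msgn1 (-0.52) and cdx4 (-0.38), which fell, and tbxta (0.19), which did not pass. The cdx4 call was lost without control replicate 1 (adjusted p = 0.0743) or control replicate 2 (adjusted p = 0.0719).

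**Figure D4:**
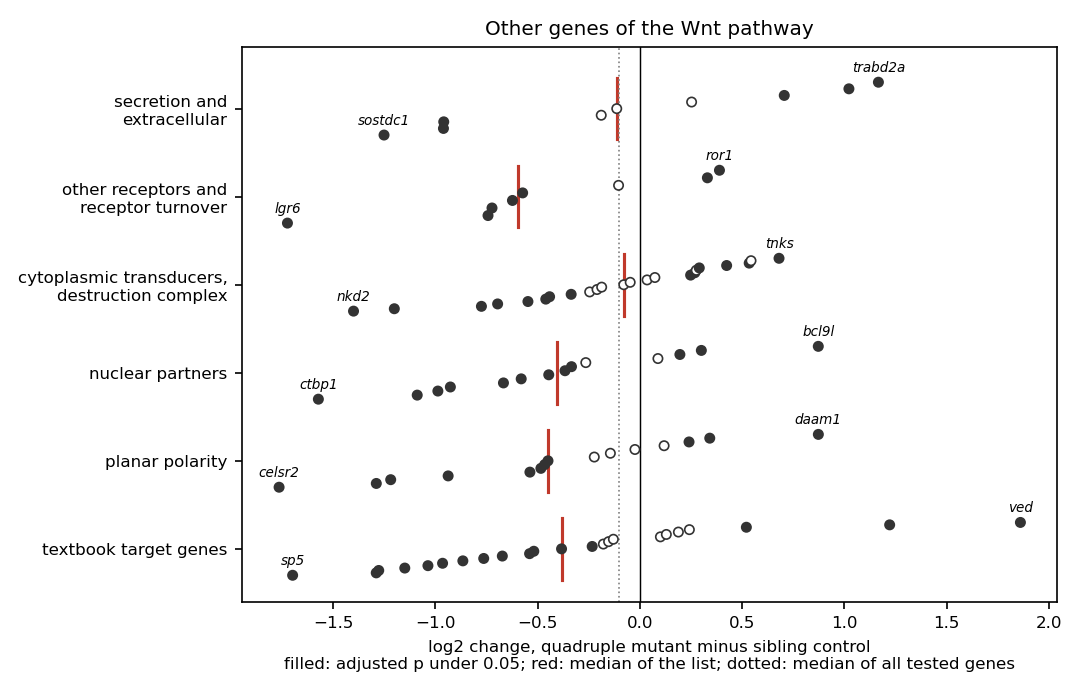
Log2 change (quadruple mutant minus sibling control) of the 92 tested pathway genes outside the members, by group, filled where the limma adjusted p was under 0.05, with a red bar at each group's median. Nuclear partners, planar polarity genes and targets have medians of -0.41, -0.45 and -0.38, and ved at 1.86 is the farthest to the right.

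Markers of the places where Wnt genes are active moved too, and their part in the changes above was not tested. Each of 11 marker lists of embryonic tissues, from skin to pigment cells, summed to at least 5.38 TPM in every library. Leaving out Wnt genes, 7 of 9 tested tailbud and presomitic mesoderm markers were lower and 0 higher, with a sum of 299 and 308 TPM in mutant embryos against 394.5 and 394 TPM in control embryos. Counts in these short lists stand beside 28.0% higher and 37.7% lower over all tested genes. The wnt8a copies, ligands of the tailbud, were higher beside them, and wnt5b, named above for tail extension, did not pass (-0.17). Of 6 tested midbrain-hindbrain boundary markers 5 were lower, with a sum of 45.6 and 46.9 TPM in mutant embryos against 77.3 and 76.5 TPM in control embryos, beside lower wnt1. Dorsal neural tube markers went both ways, 2 higher and 2 lower of 6, beside lower wnt1, wnt3a and fzd10. Of the other ligands named above with wnt1 and wnt3a, wnt3 was higher and wnt10b, wnt10a, wnt8b and wnt6 did not pass. Among the dorsal markers msx1b had 120.4 and 132 TPM in mutant embryos against 66.6 and 64.8 TPM in control embryos (0.93), and msx3 fell (-0.40). The zic2 copies parted (0.45 for ENSDARG00000037178 and -1.09 for ENSDARG00000015554). The dorsal neural tube list summed to 257 and 277 TPM in mutant embryos against 244 and 192 TPM in control embryos. That sum is moved by lmx1b ENSDARG00000104815, at 52.8 TPM in control replicate 1 and 4.68 TPM in control replicate 2. All 6 eye markers were lower, at 24.7 and 29.2 TPM in sum in the mutants against 112 and 107 TPM in control embryos. The fzd5 and sfrp1 ENSDARG00000035521 genes were lower beside them. Of the forebrain receptor pair, fzd8 ENSDARG00000045444 was lower and fzd8 ENSDARG00000038569 did not pass (-0.14). All 5 neuron markers were lower, at 39.0 and 48.0 TPM in mutant embryos against 189 and 183 TPM in control embryos. Beside them wnt7ba, wnt7b and wnt7a ENSDARG00000002483 were lower, and wnt7a ENSDARG00000044827 did not pass. Of these markers rx2 and rx3 of the eye, elavl4 of neurons and pax2 ENSDARG00000032578 of the boundary reached 1 TPM only in the controls and had to be lower to be tested. Without them 4 of 4 eye, 4 of 4 neuron and 4 of 5 boundary markers were lower. All 4 muscle markers were lower, with a sum of 748 and 707 TPM in mutant embryos against 1094 and 1124 TPM in control embryos, as were 2 of 3 blood markers, at 9.6 and 9.02 TPM in mutant embryos against 18.9 and 22.6 TPM in control embryos. All 3 tested pigment cell markers were lower, of which 2 (dct and tyrp1 ENSDARG00000029204) reached 1 TPM only in the controls. That list summed to 5.38 and 5.96 TPM in mutant embryos against 13.2 TPM in both control libraries. It was drawn up for embryos older than 18 hours post-fertilization, and whether the genotypes differed in developmental stage was not tested. Of 5 epidermal markers 3 were higher and 1 lower, both hatching gland markers were higher, and 0 of 5 notochord markers passed by limma, of which 1, noto, had an unadjusted p under 0.05 (0.043).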

How the data were processed

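Whole embryos were profiled, from about 500 ng of total RNA per library sequenced as 150 bp read pairs, per the labels' protocols. The authors deposited TPM values for 4 libraries with 2 decimals, and each library sums to 1000000 within rounding. The build was GRCz11, per the submitters' processing notes, which list DESeq2 1.42.1, HTSeq 0.12.3, R 4.3.3, RSEM 1.3.3 and STAR 2.7.3a. The tool behind the TPM, its annotation and its use of strand are not given in the sources used here. Depth cannot be had from TPM, so no count model, counting interval or detection floor was used, and copies or overlapping genes may share reads.

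Group and replicate number came from the titles. Gene symbols came from a name table, which covered 28988 of the 32057 identifiers. It gives human symbols for many genes, so some copies share a symbol and are printed with their identifier. List members were matched by zebrafish symbol, then by the symbol without its copy letter (13 of 116 pathway symbols were unmatched). RefSeq gene order served only to find neighbours.

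Genes that reached 1 TPM in 2 or more libraries were tested. The model was limma 3.58.1 (R 4.3.3) on log2(TPM + 1), with the trend option (2 residual and 3.91 prior degrees of freedom), with Benjamini-Hochberg adjustment over all tested genes and a threshold of 0.05. Log2 changes are mutant minus control on this scale, where the pseudocount shrinks the change of low genes, and ratios of mean TPM are given beside some. Permuting 2 against 2 libraries exactly gives 0.333 as the smallest p, and so single genes are called on a spread pooled across genes. The test was tested on simulated data with 200 changed genes. Far more genes were called here (10613), so that trial does not vouch for these calls. Tables and figures used Python 3.11.15 with pandas 2.3.3 and matplotlib 3.10.9.

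Members, gene lists, tests and alternatives were chosen with earlier results of these data known. Named genes were, per role, up to 8 called genes with the largest change that averaged 2 TPM or more in either genotype. Each role's most abundant gene, genes against the majority of their role and genes that did not pass were named too. Per pathway group, up to 4 genes with the lowest p were named. Outside this rule, wnt9b, wnt2b, wnt5a, wnt3, dkk2 and sfrp1 ENSDARG00000057678 were named after their values were seen. Alternatives were median ratio scaling, quantile normalization, a pseudocount of 0.1 or 5 TPM, a filter of 5 TPM or none, no variance trend, a replicate block, and each library left out in turn, where the lone library of a genotype was assumed to vary like the other genotype.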

Additional observations from a re-analysis of the deposited data

How the results depend on the processing

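Of the 56 tested Wnt genes, 37 kept their direction and their side of the threshold under every alternative in which they were tested. Counts of Wnt genes called ranged from 15 to 21 higher and from 17 to 26 lower over all alternatives. Among other pathway genes 11 to 22 were higher with single libraries left out, against 20 with all, and the low end came from leaving out either control. Median ratio scaling moved the median change of all tested genes from -0.10 to 0.0043, turned the sign of axin1 (0.031) and wnt11 (0.0207), and brought rspo2 (0.49) and fzd2 (0.21) past the threshold. With single libraries left out, wnt8b ranged from -0.0785 to 0.159 and wnt6 from -0.146 to 0.243. The cause was not tested. Without either mutant library rspo1, wnt2 and fzd9 ENSDARG00000035185 did not meet the filter, and without either control dkk2 and sfrp1 ENSDARG00000057678 did not. tcf7l1b was the call most easily lost, in 7 of 12 alternatives.

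Same-numbered libraries did not deviate together (r = 0.049 across genes, which are not independent), and the labels do not pair them. With the replicate block 20 Wnt genes were higher and 25 lower, 18 and 45 other pathway genes, and 4457 and 6062 of all tested genes. The block brought rspo2 past the threshold (adjusted p = 0.0437) and changed no other call among the Wnt genes. Depth, and with it the counting error of low genes, is unknown.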
